A study of Bos taurus with 8 samples.

Results

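The tumour necrosis factor (TNF) superfamily pairs ligands with receptors, and it was examined here in bovine cells labelled as uterine epithelial and given progesterone. Members were taken by gene symbol: any symbol that starts with TNFRSF (receptors) or TNFSF (ligands) followed by a digit, and TNF, LTA, LTB, LTBR, FAS, FASLG, CD40, CD40LG, NGFR and EDAR. The rule found 38 of the 28709 genes in the deposited table, 22 receptors and 16 ligands. Of these, 23 had enough counts to be tested (17 receptors and 6 ligands) and 15 did not. The cells were BUTE cells, labelled wild type, an immortalized line of uterine epithelium derived from a Holstein cow, and all results come from this single line. All cells were first kept for 24 h free of serum and of steroids, in the presence of IGF1 (insulin-like growth factor 1). One group then received 10 µM progesterone for 24 h (4 libraries, called progesterone R1, R2, R3 and R6) and the other the vehicle DMSO (4 libraries, called DMSO R1, R3, R7 and R9). Both groups had IGF1 at 50 ng/ml during treatment. Messenger RNA was sequenced, and values below are CPM (counts relative to library size), scaled by TMM factors, which adjust for the makeup of each library.

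Ligands of this family are mostly membrane proteins that act as trimers, on the cell surface or after being shed. Receptors such as TNFRSF1A, FAS and the receptors for TRAIL (the ligand encoded by TNFSF10) carry a cytoplasmic death domain that can start caspase-driven cell death, while most others bind TRAF adaptors and activate NF-κB. Decoy receptors bind a ligand without passing on the full signal. In the endometrium, TNF and its relatives are known from inflammation, from tissue turnover across the cycle and from the attachment of the embryo.

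The libraries held between 23810841 and 32509792 rounded counts. DMSO R7 and R9 differed from DMSO R1 and R3 by a chi-square per degree of freedom of 99.7 to 129, against 32.4 between R7 and R9, 17.5 between R1 and R3 and 14.2 to 36.6 among the progesterone libraries, so fold changes are given with and without R7 and R9. For the labelled cell type, 8 epithelial markers were looked at, which summed to 1757 to 2679 CPM with progesterone and 2842 to 3094 CPM with DMSO. Most of this sum was KRT8 and KRT19. KRT8 lay between 1348 and 2107 CPM with progesterone and between 2286 and 2789 CPM with DMSO. EPCAM lay between 0.275 and 0.595 CPM with progesterone and between 0.546 and 2.53 CPM with DMSO. KRT18 averaged 1.43 CPM with progesterone and 4.06 CPM with DMSO, OCLN 19.8 CPM with progesterone and 22.2 CPM with DMSO, and CLDN4 had 5 counts in all libraries together. In the other direction, KRT19 averaged 472 CPM with progesterone and 446 CPM with DMSO, KRT7 20.1 CPM with progesterone and 17.3 CPM with DMSO, and CDH1 16.3 CPM with progesterone and 12.7 CPM with DMSO. With all libraries the log2 fold changes were -0.51 (KRT8), -1.73 (EPCAM), -1.49 (KRT18), -0.17 (OCLN), 0.08 (KRT19), 0.22 (KRT7) and 0.37 (CDH1). Without R7 and R9 they were, in the same order, -0.39, -0.46, -0.24, -0.23, -0.42, -0.50 and 0.18, so KRT19 and KRT7 changed sign. Of 9 stromal markers all were detected, and they summed to 12083 to 13276.5 CPM with progesterone and 13286 to 20569 CPM with DMSO. VIM lay at 6562 to 7467 CPM with progesterone and 5814 to 6816 CPM with DMSO. COL1A1 lay at 1516 to 1851 CPM with progesterone and 1928 to 6554 CPM with DMSO. COL1A2 lay at 2970 to 3597 CPM with progesterone and 4056 to 6652 CPM with DMSO. Log2 fold changes with all libraries were 0.10 (VIM), 0.02 (DCN), -1.22 (COL1A1), -0.70 (COL1A2), -0.85 (COL3A1), -0.51 (LUM), -0.45 (PDGFRA), -0.18 (THY1) and -0.07 (PDGFRB). In the same order they were 0.15, -0.56, -0.21, -0.31, -0.01, -0.31, -0.04, 0.16 and -0.53 without R7 and R9. Of 11 leukocyte markers 2 were tested and PTPRC, MS4A1 and NKG7 had no count. The 11 summed to 8.60 to 12.4 CPM with progesterone and 4.35 to 11.9 CPM with DMSO. The 5 endothelial markers, of which 2 were tested, summed to 3.73 to 6.62 CPM with progesterone and 2.99 to 4.96 CPM with DMSO. Of the tested markers of these lists, none passed the threshold, and their part in the results below was not tested. Stromal markers were thus counted beside the keratins, so the name epithelial rests on the labels and not on these markers.

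Receptors held both of the changes that passed the test. TNFRSF10D, annotated in the table as a decoy TRAIL receptor with a truncated death domain, rose 1.63-fold with progesterone, and LTBR, the receptor for lymphotoxin heterotrimers and for TNFSF14 that drives the alternative NF-κB pathway, rose 1.30-fold. The other 15 tested receptors and all 6 tested ligands did not pass. Thus 2 of 23 tested members were called, both higher, by edgeR's quasi-likelihood test with a Benjamini-Hochberg threshold of 0.05 over all genes tested, where the background was 1.69% of 13557 tested genes higher and 0.959% lower (2.65% in either direction). At an unadjusted p under 0.05 there were 6 of the 23 members, beside 26.8% of all tested genes. Without DMSO R7 and R9, 24 members were tested and 2 were called, TNFRSF10D and FAS, both higher, against a background of 0.995% higher and 0.182% lower (1.18% in either direction). These are bulk samples, in which fewer cells of a kind and less RNA per cell cannot be told apart.

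TNFRSF10D (Entrez Gene 782274, on an unplaced scaffold) had 248, 277, 253 and 254 CPM in progesterone R1, R2, R3 and R6, against 162, 159, 152 and 161 CPM in DMSO R1, R3, R7 and R9. Every progesterone library was above every DMSO library, and the DMSO libraries, R7 and R9 included, lay close together. The means were 258 ± 13.1 CPM with progesterone and 159 ± 4.84 CPM with DMSO (SD, n = 4 each). The log2 fold change was 0.70 ± 0.07 (SE), with a 95% interval of 0.54 to 0.87 and an edgeR adjusted p of 0.00748. It was 0.70 without R7 and R9 as well (adjusted p = 0.00615). In human cells the gene of this name encodes a TRAIL receptor that cannot signal for death through its truncated death domain.

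The table holds other rows of the TRAIL receptor kind whose symbol is only a locus number, and these were looked at after their values had been seen. LOC784541 is annotated as receptor 10A, LOC112445390 and LOC112445701 as 10A-like, LOC104968444 as 10B-like, and LOC510798 (chromosome 29) as receptor 26. Reads shared between such copies are divided by a model, so the level of each single row, TNFRSF10D included, is uncertain. LOC784541 had 172, 194, 186 and 130 CPM in progesterone R1, R2, R3 and R6, against 108, 118, 128 and 123 CPM in DMSO R1, R3, R7 and R9. Its groups did not overlap, progesterone R6 lay nearest to the DMSO libraries, and the log2 fold change of 0.51 ± 0.12 (SE) did not pass (edgeR adjusted p = 0.0555). The other 4 rows had log2 fold changes of 0.43 (LOC112445390), 0.88 (LOC112445701), 0.41 (LOC104968444) and 0.42 (LOC510798), and none of them passed, with edgeR adjusted p from 0.0520 to 0.113. With R7 and R9 left out, the log2 fold changes were 0.61 (LOC784541), 0.48 (LOC112445390), 1.17 (LOC112445701), 0.44 (LOC104968444) and 0.59 (LOC510798). Progesterone R6 was the lowest progesterone library in each of the 5 rows with a locus number, while it was not the lowest at TNFRSF10D.

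**Figure D1:**
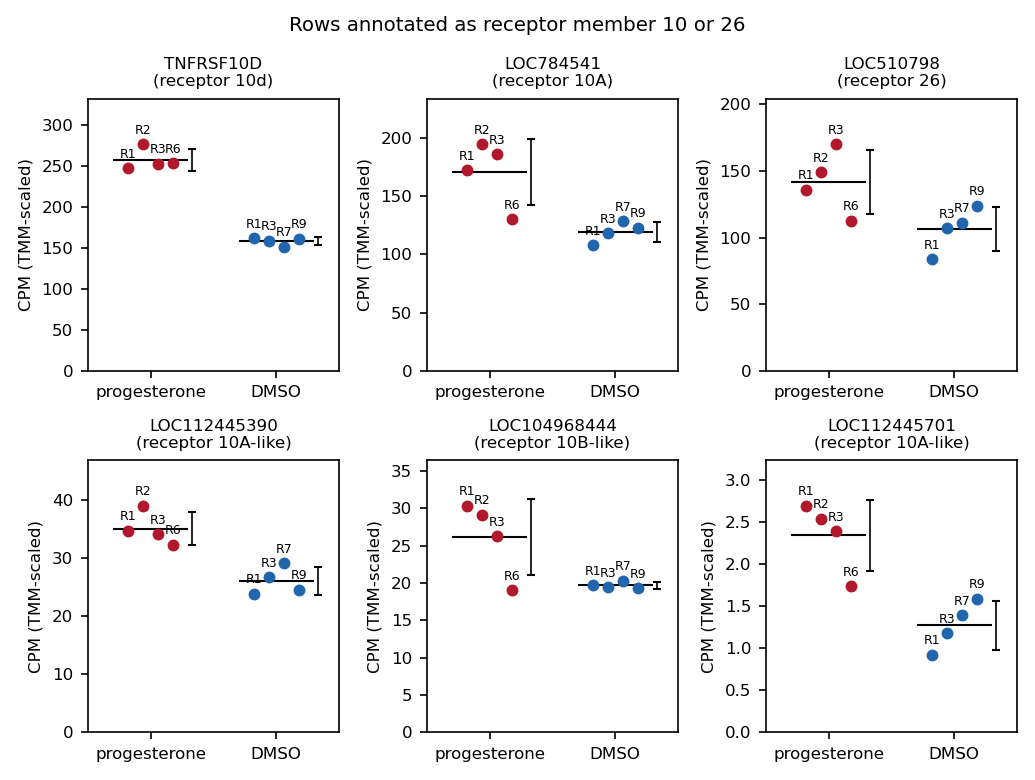
Level in CPM (y axis, from 0) of the 6 rows annotated as receptor member 10 or 26, by group, with progesterone left and DMSO right. Points are libraries, lines are means and bars are ±1 SD (n = 4). TNFRSF10D shows 248 to 277 CPM with progesterone and 152 to 162 CPM with DMSO, and progesterone R6 is the lowest progesterone library in the 5 other rows.

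To avoid the division of shared reads, the 5 rows annotated as receptor 10 were added up in each library. The sum was 487, 542, 502 and 437 CPM in progesterone R1, R2, R3 and R6, against 315, 325, 331 and 329.5 CPM in DMSO R1, R3, R7 and R9. All progesterone sums were above all DMSO sums. The total was 1.51-fold higher with progesterone, a log2 fold change of 0.60 ± 0.09 (SE) with an edgeR adjusted p of 0.0139. Leaving out R7 and R9 gave 0.63 (adjusted p = 0.0197). TNFRSF10D made up 50.8, 51.1, 50.5 and 58.1% of the sum in progesterone R1, R2, R3 and R6 and 51.5, 49.0, 45.8 and 49.0% in DMSO R1, R3, R7 and R9. The shares averaged 52.6 ± 3.65% with progesterone and 48.8 ± 2.34% with DMSO, a difference that did not pass (two-sided exact permutation test, p = 0.114, with 0.0286 the smallest p that 4 against 4 allows).

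LTBR (504653, chromosome 5) had 139.6, 132, 156 and 145 CPM in progesterone R1, R2, R3 and R6, against 105, 114, 119.9 and 101 CPM in DMSO R1, R3, R7 and R9. The groups did not overlap, with progesterone R2 and DMSO R7 nearest to each other. LTBR averaged 143 ± 10.0 CPM with progesterone and 110.0 ± 8.63 CPM with DMSO (SD, n = 4 each), a log2 fold change of 0.38 ± 0.09 (SE, 95% interval 0.19 to 0.57, edgeR adjusted p = 0.0497). Leaving out R7 and R9 gave 0.40 with an adjusted p of 0.0715, so the call was lost without a smaller change. It was also lost on leaving out single libraries. With progesterone R1, R2, R3 or R6 left out in turn, the adjusted p was 0.100, 0.0978, 0.112 or 0.128. With DMSO R7 or R9 left out alone it was 0.0921 or 0.132. Over all genes these fits called 42 to 82 genes, against 359 with all libraries.

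Next to LTBR, with 1 protein-coding gene between them in the RefSeq assembly ARS-UCD2.0, lies TNFRSF1A (282527, chromosome 5), the main death-domain receptor for TNF. TNFRSF1A had 202, 199.7, 220.3 and 209 CPM in progesterone R1, R2, R3 and R6, against 187, 170.0, 110.1 and 96.3 CPM in DMSO R1, R3, R7 and R9. No progesterone library reached down to the DMSO range, and within DMSO the libraries R7 and R9 lay far below R1 and R3. The log2 fold change was 0.56 ± 0.19 (SE, 95% interval 0.13 to 0.99, edgeR adjusted p = 0.112) and 0.23 without R7 and R9 (adjusted p = 0.242). TNFRSF1B (338033, chromosome 16), the TNF receptor without a death domain, was likewise lowest in DMSO R7 and R9. It had 25.4, 23.5, 29.6 and 24.7 CPM in progesterone R1, R2, R3 and R6, against 20.7, 22.4, 13.1 and 12.4 CPM in DMSO R1, R3, R7 and R9, with a log2 fold change of 0.59 ± 0.19 (SE, edgeR adjusted p = 0.100), and 0.27 without R7 and R9 (adjusted p = 0.285). TNFRSF1A would have passed on leaving out DMSO R1 (log2 fold change 0.73, adjusted p = 0.0316), and TNFRSF1B on leaving out DMSO R1 (0.69, 0.0492) or DMSO R3 (0.75, 0.0465). Over all genes, 1782 of 13700 passed without DMSO R1 and 795 of 13745 without DMSO R3, against 359 of 13557 with all libraries.

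FAS (282488, chromosome 26), the death receptor for FAS ligand, behaved the other way round. It had 9.26, 9.08, 10.4 and 9.80 CPM in progesterone R1, R2, R3 and R6, against 6.11, 5.62, 9.16 and 8.59 CPM in DMSO R1, R3, R7 and R9. Here DMSO R7 lay within the progesterone range and R9 just below it, with R1 and R3 further below. With all libraries the log2 fold change was 0.39 ± 0.18 (SE, edgeR adjusted p = 0.198). With 4 progesterone libraries against DMSO R1 and R3 alone it was 0.73 (95% interval 0.39 to 1.06) with an adjusted p of 0.0497.

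**Figure D2:**
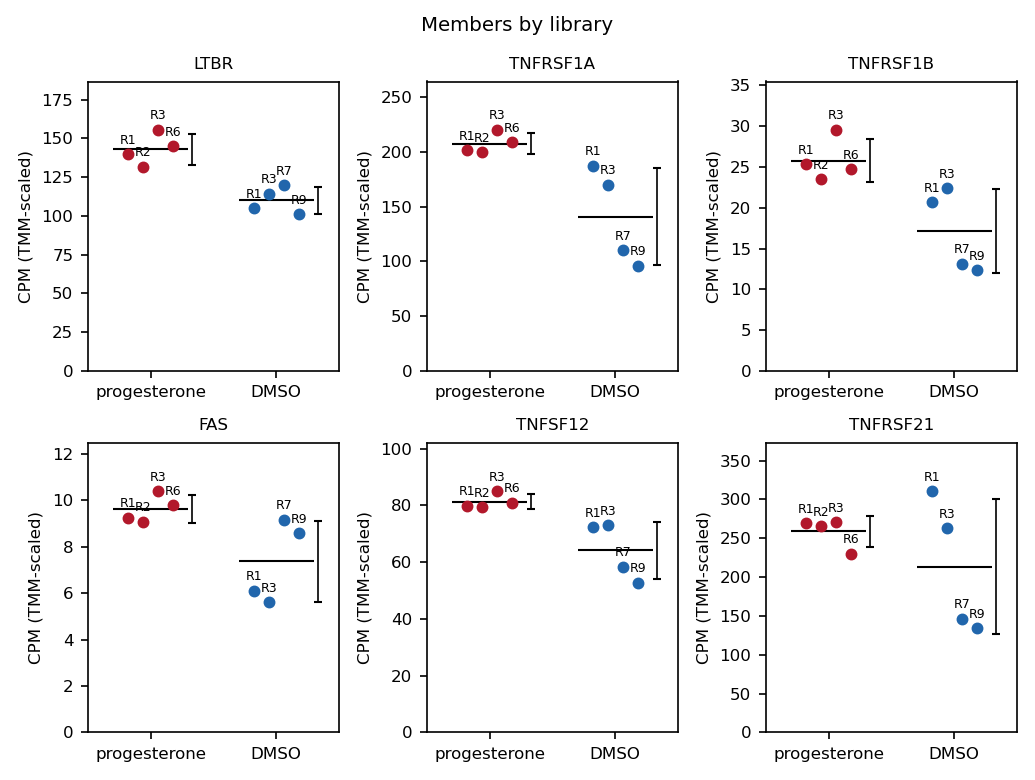
Level in CPM (y axis, from 0) of 6 members by group, with progesterone left and DMSO right. Points are libraries named after the table's columns, lines are means and bars are ±1 SD (n = 4). DMSO R7 and R9 lie lowest for TNFRSF1A, TNFRSF1B, TNFSF12 and TNFRSF21, while for FAS they lie at 9.16 and 8.59 CPM, near the progesterone libraries.

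Of the other receptors with a death domain, TNFRSF21 (death receptor 6 in human) had 269, 265, 270.5 and 229.9 CPM in progesterone R1, R2, R3 and R6, against 311, 263, 147 and 134 CPM in DMSO R1, R3, R7 and R9. DMSO R1 lay above the progesterone libraries' range, R3 within it and R7 and R9 far below it, and the log2 fold change of 0.28 ± 0.25 (SE, edgeR adjusted p = 0.499) was -0.14 without R7 and R9. TNFRSF25, the receptor for TNFSF15, lay between 3.39 and 5.00 CPM with progesterone and between 2.00 and 5.40 CPM with DMSO, and its log2 fold change was 0.20 over the 8 libraries and -0.32 without R7 and R9. NGFR, the low-affinity neurotrophin receptor, averaged 1.10 ± 0.149 CPM with progesterone and 0.873 ± 0.0858 CPM with DMSO and did not pass (log2 fold change 0.34, edgeR adjusted p = 0.399, and 0.45 with R7 and R9 left out).

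TNFRSF12A (617439, chromosome 25), the TWEAK receptor known for induction by growth factors and injury, had 196, 212, 263 and 164 CPM in progesterone R1, R2, R3 and R6, against 201, 245, 217 and 203 CPM in DMSO R1, R3, R7 and R9. The groups overlapped fully. Its log2 fold change was -0.05 ± 0.14 (SE, edgeR adjusted p = 0.829) with a 95% interval of -0.35 to 0.25, and leaving out R7 and R9 gave -0.08. CD40, the costimulatory receptor of antigen-presenting cells that some epithelia also carry, lay between 7.34 and 11.5 CPM with progesterone and between 8.19 and 15.1 CPM with DMSO. Its DMSO libraries R7 and R9 were the highest of all 8, and its log2 fold change was -0.29 with all libraries and 0.12 without these 2.

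The secreted decoy receptors did not pass. TNFRSF6B, a secreted decoy for FAS ligand and TNFSF14 in human, lay between 6.54 and 11.7 CPM with progesterone, against 8.16, 9.11, 2.75 and 2.23 CPM in DMSO R1, R3, R7 and R9. Its log2 fold change of 0.63 ± 0.44 (SE, edgeR adjusted p = 0.371) was 0.01 without R7 and R9. TNFRSF11B, or osteoprotegerin, the secreted decoy for TNFSF11, averaged 2.92 ± 0.761 CPM with progesterone and 3.32 ± 1.09 CPM with DMSO (log2 fold change -0.19, edgeR adjusted p = 0.693, and -0.43 with R7 and R9 left out). TNFRSF11A, the signalling receptor for the same ligand, averaged 0.423 CPM with progesterone and 0.595 CPM with DMSO (log2 fold change -0.49, adjusted p = 0.504, and -0.38 with R7 and R9 left out).

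TNFRSF8, TNFRSF4 and TNFRSF17, receptors known mainly from lymphocytes, were each lowest in DMSO R7 and R9. TNFRSF8 (CD30) had 12.6, 14.0, 7.02 and 6.58 CPM in progesterone R1, R2, R3 and R6, against 16.1, 10.7, 2.38 and 1.97 CPM in DMSO R1, R3, R7 and R9. The groups overlapped, and the 95% interval of its log2 fold change, -1.14 to 1.87, covers changes of over 2-fold in both directions. Its log2 fold change was 0.37 with all libraries and -0.40 with R7 and R9 left out. TNFRSF4 (OX40) averaged 1.66 ± 0.300 CPM with progesterone and 0.883 ± 0.698 CPM with DMSO (log2 fold change 0.90, edgeR adjusted p = 0.260, and 0.26 with R7 and R9 left out). TNFRSF17, a receptor of plasma cells, averaged 0.496 CPM with progesterone and 0.314 CPM with DMSO (log2 fold change 0.64, edgeR adjusted p = 0.507, and -0.07 with R7 and R9 left out). TNFRSF19, a TRAF-binding receptor known from epithelial and neural development, had the largest log2 fold change of the 23, 1.07 ± 0.34 (SE). It had 0.734, 0.476, 0.878 and 0.744 CPM in progesterone R1, R2, R3 and R6, against 0.444, 0.294, 0.373 and 0.227 CPM in DMSO R1, R3, R7 and R9, from 117 counts in all. Without overlap between the groups, the edgeR adjusted p was 0.0953, and leaving out R7 and R9 gave 0.94.

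Of the ligands, TNFSF12 (100551513, chromosome 19), or TWEAK, which binds TNFRSF12A, had 79.9, 79.4, 85.0 and 81.0 CPM in progesterone R1, R2, R3 and R6, against 72.3, 73.0, 58.4 and 52.8 CPM in DMSO R1, R3, R7 and R9. The groups did not overlap, and R7 and R9 were the lowest libraries. The log2 fold change was 0.34 ± 0.11 (SE) with an edgeR adjusted p of 0.0962, and 0.18 without R7 and R9 (adjusted p = 0.322). It would have passed without DMSO R1 (0.41, adjusted p = 0.0461), where 1782 of all 13700 tested genes did. TNFSF9, a costimulatory ligand of T cells, had 39.6, 43.7, 56.3 and 37.8 CPM in progesterone R1, R2, R3 and R6, against 42.4, 50.5, 43.2 and 38.8 CPM in DMSO R1, R3, R7 and R9. These groups overlapped fully, and the 95% interval of the log2 fold change was -0.28 to 0.32 around 0.02, and leaving out R7 and R9 gave -0.05.

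The remaining tested ligands were TNFSF13 (APRIL) and TNFSF13B (BAFF), which support B cells, LTB and TNFSF15. TNFSF13 averaged 5.66 ± 0.421 CPM with progesterone and 5.08 ± 1.92 CPM with DMSO, TNFSF13B 0.655 CPM with progesterone and 0.567 CPM with DMSO, and LTB 0.998 CPM with progesterone and 0.799 CPM with DMSO, and none of the 3 passed (edgeR adjusted p from 0.599 to 0.724). Their log2 fold changes were 0.16, 0.21 and 0.32 with all libraries, and -0.22, 0.25 and -0.01 with R7 and R9 left out. TNFSF15, the ligand of TNFRSF25, had 1.28, 1.98, 2.25 and 2.61 CPM in progesterone R1, R2, R3 and R6, against 0.922, 0.881, 2.85 and 2.38 CPM in DMSO R1, R3, R7 and R9. R7 and R9 lay with the progesterone libraries, and the log2 fold change was 0.20 ± 0.42 (SE, edgeR adjusted p = 0.780) with all libraries and 1.17 without these 2 (adjusted p = 0.139).

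The 15 members that were not tested hold most of the classical ligands. TNF itself had 1 count in the 8 libraries together, TNFSF10 (TRAIL) 14, FASLG 12, LTA 8, TNFSF18 5, TNFSF4 2 and TNFSF11 (RANK ligand) 2. CD40LG, TNFSF8, TNFSF14 and the receptors EDAR and TNFRSF13B had none, where a count of 0 allows up to 3 counts in the total of 223262418, or 0.0134 CPM, as counting error only. The receptors TNFRSF18, TNFRSF9 and TNFRSF13C had 80, 45 and 18 counts. The RNA of the ligands for TNFRSF1A, FAS and the TRAIL receptors was thus counted only a few times in the 8 libraries together, while TNFRSF1A, FAS and TNFRSF10D were counted in every library.

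**Figure D3:**
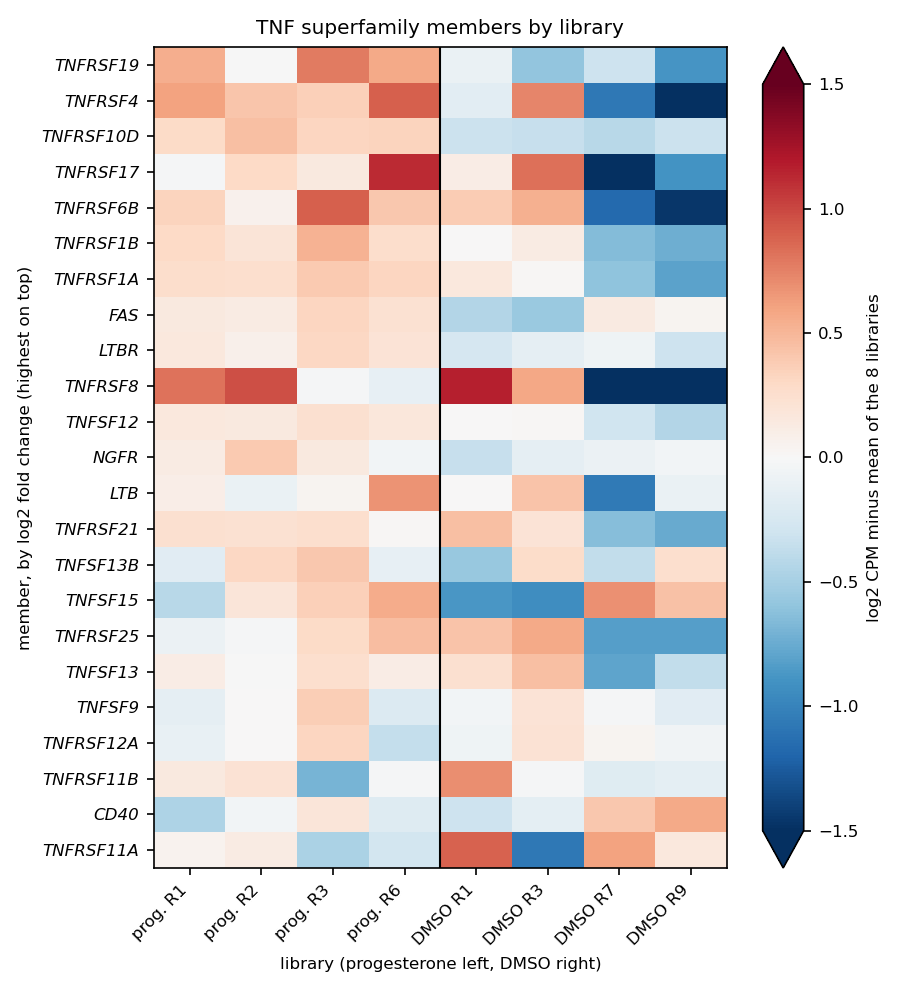
Level of each of the 23 tested members (rows, by log2 fold change) in each library (columns, progesterone left of the line, DMSO right), as log2 CPM with a prior count of 2 minus the mean of the 8 libraries; colours stop at the ends of the scale. DMSO R7 and R9 are the bluest columns for TNFRSF8, TNFRSF6B, TNFRSF4, TNFRSF17, TNFRSF1A, TNFRSF1B, TNFRSF21 and TNFRSF25, and TNFRSF10D is even within each group.

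Across the 23 tested members, 19 had a positive log2 fold change and the median was 0.34, beside 49.0% positive and a median of -0.01 over all 13557 tested genes. Without R7 and R9, 14 of 24 were positive with a median of 0.09, beside 52.0% and 0.01 over all genes. Both R7 and R9 lay below the other 6 libraries at 10 of the 23 members, beside 24.0% of all tested genes, and above them at 1, CD40, beside 25.2%. The 10 were TNFRSF1A, TNFRSF1B, TNFRSF4, TNFRSF6B, TNFRSF8, TNFRSF17, TNFRSF21, TNFRSF25, TNFSF12 and TNFSF13. The groups did not overlap at 7 members, each higher with progesterone, beside 16.2% of all tested genes without overlap and 7.95% higher without overlap. For 14 of the 23 the whole 95% interval lay within a 2-fold change, and for 3, LTBR, TNFRSF12A and TNFSF9, within 1.5-fold. Over all 13557 tested genes it lay within 2-fold for 10892 and within 1.5-fold for 7368.

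**Figure D4:**
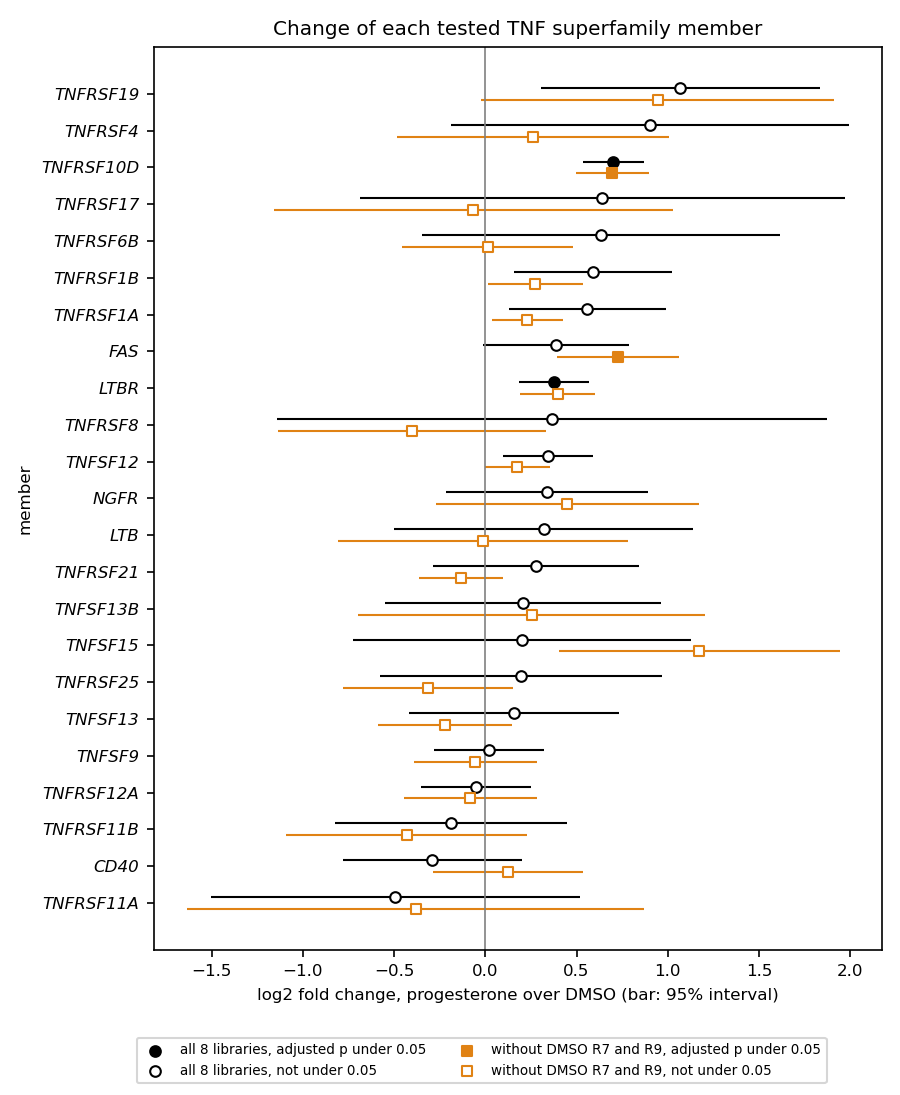
Log2 fold change of progesterone over DMSO (x axis) for each tested member (y axis), with 95% intervals as bars: circles for all 8 libraries, squares without DMSO R7 and R9; filled symbols have an edgeR adjusted p under 0.05. TNFRSF10D lies at 0.70 in both, LTBR is filled only with all libraries and FAS only without the 2.

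By position, the members on chromosome 16 include the adjacent pairs TNFRSF1B with TNFRSF8 and TNFRSF4 with TNFRSF18. Of 9 members on this chromosome 4 were tested, TNFRSF1B, TNFRSF8, TNFRSF4 and TNFRSF25. Each of these was lowest in DMSO R7 and R9, as were 10 of the 23 tested members and 24.0% of all tested genes. The share among all genes of chromosome 16 was not examined. Of the members there that were not tested, none had R7 and R9 both below every other library. TNFRSF9 was highest in R7 and R9, at 0.271 and 0.378 CPM. LTB, TNF and LTA are adjacent on chromosome 23, and of them LTB alone had enough counts to be tested. TNFSF12 and TNFSF13, with 1 protein-coding gene between them on chromosome 19, were both lowest in R7 and R9.

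Downstream of the receptors, 3 of 74 tested genes of the wider pathway passed, 2 higher and 1 lower, where the background was again 1.69% higher and 0.959% lower. The adaptor TRAF4 and the NF-κB cofactor BCL3 rose with progesterone, and MLKL, the pore-forming executioner of necroptosis, fell. The median log2 fold change of the 74 genes was -0.02, beside -0.01 over all tested genes. None of the 74 passed without DMSO R7 and R9, beside 1.18% of all 13764 tested genes, and 2 of 24 superfamily members did. Without R7 and R9 the log2 fold changes were 0.37 (TRAF4), 0.60 (BCL3) and -0.50 (MLKL). Whether pathway and superfamily differ was not tested.

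Of 11 receptor adaptors, 1 rose and 10 did not pass. TRAF4 (781568) had 74.8, 70.4, 69.8 and 66.3 CPM in progesterone R1, R2, R3 and R6, against 58.0, 51.7, 57.4 and 54.6 CPM in DMSO R1, R3, R7 and R9. The groups did not overlap, the log2 fold change was 0.34 ± 0.08 (SE, edgeR adjusted p = 0.0489) and without R7 and R9 it was 0.37 (adjusted p = 0.0857). TRAF1, an adaptor that NF-κB induces, averaged 26.3 ± 3.01 CPM with progesterone and 15.0 ± 5.10 CPM with DMSO (log2 fold change 0.81 ± 0.22 SE, edgeR adjusted p = 0.0716). Its values in DMSO R7 and R9 were 10.7 and 10.6 CPM, and leaving both out gave 0.45. TRAF5 also did not pass (0.40, adjusted p = 0.207, and 0.09 with R7 and R9 left out). TRAF4 passed on leaving out DMSO R1 alone (adjusted p = 0.0317), where 1782 of all 13700 tested genes did. On leaving out any other single library the adjusted p of TRAF4 lay between 0.0547 and 0.129. Its call was also lost under other scalings, without the filter and with limma voom (adjusted p from 0.0511 to 0.0525).

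Of 10 tested cell death effectors, 1 fell and 9 did not pass, and CASP10 was not analysed here. MLKL (790225) had 21.7, 17.7, 22.5 and 16.8 CPM in progesterone R1, R2, R3 and R6, against 25.3, 31.1, 38.9 and 36.1 CPM in DMSO R1, R3, R7 and R9. All progesterone libraries were below all DMSO libraries. It was 1.67-fold lower with progesterone, a log2 fold change of -0.74 ± 0.15 (SE) with an edgeR adjusted p of 0.0376. Leaving out R7 and R9 gave -0.50 (adjusted p = 0.120). RIPK3, the kinase that activates MLKL, lay in the other direction at 26.7 ± 6.12 CPM with progesterone and 15.7 ± 3.99 CPM with DMSO and did not pass (0.76 ± 0.21 SE, adjusted p = 0.0721, and 0.49 with R7 and R9 left out). MLKL passed on leaving out DMSO R1 (adjusted p = 0.0122) or R3 (0.0394) and on leaving out any other single library did not (adjusted p from 0.0801 to 0.128). Over all genes, leaving out DMSO R1 called 1782 of 13700 and leaving out R3 called 795 of 13745.

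Of 15 tested TNF-responsive genes, BCL3 rose and 14 did not pass. BCL3 (531942) had 80.1, 73.7, 104 and 95.2 CPM in progesterone R1, R2, R3 and R6, against 59.5, 57.6, 60.4 and 45.6 CPM in DMSO R1, R3, R7 and R9. Every progesterone library was above every DMSO library. BCL3 was 1.58-fold higher with progesterone, a log2 fold change of 0.66 ± 0.13 (SE) with an edgeR adjusted p of 0.0331. Leaving out R7 and R9 gave 0.60 (adjusted p = 0.0614). SOD2, the mitochondrial superoxide dismutase, averaged 53.2 ± 3.87 CPM with progesterone and 41.4 ± 2.99 CPM with DMSO and did not pass (0.36, adjusted p = 0.0624, and 0.35 with R7 and R9 left out), and PTGS2, the inducible prostaglandin synthase, averaged 26.2 ± 4.40 CPM with progesterone and 41.8 ± 13.1 CPM with DMSO (-0.67, adjusted p = 0.100, and -0.26 without R7 and R9). CCL20, IL6 and BCL2A1 were not tested, with 45, 23 and 0 counts. BCL3 kept the call on leaving out DMSO R1 (adjusted p = 0.0226) or R3 (0.0394), where 1782 of 13700 and 795 of 13745 tested genes were called. On leaving out any other single library BCL3 did not pass (adjusted p from 0.0583 to 0.104).

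No gene of the remaining lists passed in edgeR with all 8 libraries, the filter and the group alone in the model. These lists held 16 NF-κB subunits, inhibitors and kinases (2 at an unadjusted p under 0.05) and 11 ubiquitin ligases and deubiquitinases (1). They also held 9 genes that shed ligands and receptors (1) and 2 tested family members with other symbols (1). Of all tested genes, 26.8% had an unadjusted p under 0.05. DESeq2, which called 1830 of 13546 genes in all, called RELB, NFKBIA and OTULIN of these lists. From the same lists limma voom called none, with 318 of 13557 genes called in all. Without the filter edgeR called RELB, and 350 of 19943 genes in all. Without DMSO R1, where 1782 of all 13700 tested genes passed, it called RELB, NFKBIA, ADAM10 and EDA. With the replicate block it called BIRC3, NFKB2, NFKBIA, OTULIN, RELB and SHARPIN, from 1 residual degree of freedom. The fit with this block called 2531 of 13557 genes in all. RELB, the NF-κB subunit of the alternative pathway, averaged 58.9 ± 5.85 CPM with progesterone and 43.4 ± 4.28 CPM with DMSO, without overlap (log2 fold change 0.44 ± 0.10 SE, edgeR adjusted p = 0.0527). It was at 0.44 with R7 and R9 left out as well. NFKBIA, which holds NF-κB in the cytoplasm, was at 0.50 (adjusted p = 0.101, and 0.26 with R7 and R9 left out) and OTULIN, which removes linear ubiquitin, at -0.29 (adjusted p = 0.0909, and -0.35 with R7 and R9 left out). ADAM10, a sheddase, was at -0.46 (adjusted p = 0.122) and at -0.08 without R7 and R9. EDA, the ligand of the EDAR receptor, averaged 1.75 ± 0.0814 CPM with progesterone and 3.40 ± 1.66 CPM with DMSO (log2 fold change -0.96, adjusted p = 0.115, and -0.18 with R7 and R9 left out), with 5.23 and 4.39 CPM in R7 and R9. The deubiquitinase CYLD (-0.23), the ubiquitin ligase BIRC2 (-0.21), the IκB kinase subunit IKBKG (-0.14), the sheddase inhibitor TIMP3 (-0.41), the aminopeptidase ERAP1 (-0.41) and the receptor RELT (-0.09) did not pass either, with edgeR adjusted p from 0.210 to 0.710; without R7 and R9, BIRC2, TIMP3 and ERAP1 lay above 0, and CYLD, IKBKG and RELT were at -0.03, -0.14 and -0.14.

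**Figure D5:**
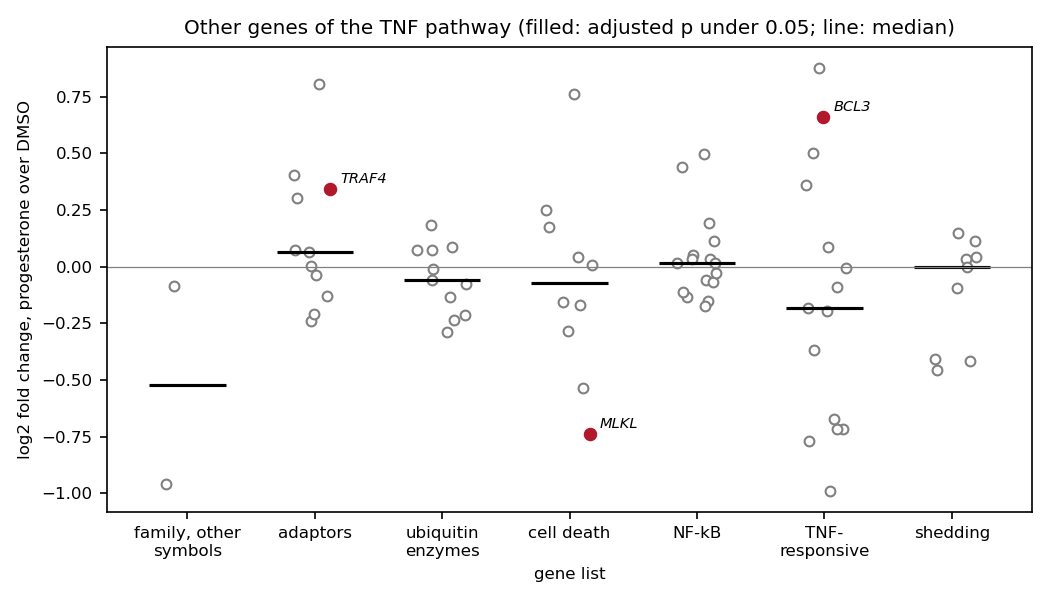
Log2 fold change of progesterone over DMSO (y axis) for the 74 tested genes of 7 pathway lists (x axis). Points are genes, filled where the edgeR adjusted p is under 0.05, and lines are list medians; TRAF4 and BCL3 lie above 0 and MLKL below.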

How the data were processed

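mRNA of 8 samples was sequenced from a stranded library kit, per the labels. The authors deposited estimated counts per gene for 8 columns, with gene symbols, products and chromosomes; Salmon 1.4.0, bcl2fastq and ARS-UCD1.2, a cattle genome build, are listed in the submitters' processing notes. Their settings, and how transcripts were summed to genes, are not given in the sources used here. The table's name speaks of length normalization, which the column totals neither show nor exclude. No transcript lengths were used, so levels are not compared between genes. Column names give the group but not the sample, and the labels do not say whether libraries came from separate cultures, so p-values measure only the spread between these libraries.

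Estimated counts were rounded, filtered with filterByExpr (13557 genes kept), TMM-scaled and tested with edgeR 4.0.16 (quasi-likelihood, robust, two-sided, R 4.3.3), with Benjamini-Hochberg adjustment over all genes at a threshold of 0.05. The SE is the log2 fold change divided by the square root of F. The method was also run on simulated counts, with planted changes larger than those of the called members and pathway genes. These counts held no split like that of DMSO R7 and R9, so the run does not show how the method deals with it. Of the 38 identifiers, 37 were found in the RefSeq gene table (ARS-UCD2.0), used only for which genes are neighbours.

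The members and the pathway and marker lists were chosen with earlier results of these data known. Named genes are every tested member, and of each pathway list every gene that passed and up to 3 with the smallest p; 1 gene named by this rule is not reported here. Alternatives were other scalings and filters, DESeq2 1.42.0, limma voom 3.58.1, leaving out libraries, a term for DMSO R7 and R9 and a replicate block; the sum of TRAIL receptor rows was added after the data were seen.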

Additional observations from a re-analysis of the deposited data

Results flagged for a closer look

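Among 52 groups of 4 libraries, 2 held a library whose gap to the nearest other exceeded 0.829 of the group's range, where chance gives about 1 in 20. TNFRSF21 was at 229.9 CPM in progesterone R6, against 265 to 270.5 CPM in the other 3 progesterone libraries. TNFRSF11B was at 4.95 CPM in DMSO R1, against 2.65 to 2.97 CPM in the other 3 DMSO libraries. Neither gene passed the test.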

How the results depend on the processing

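TNFRSF10D passed under each of the 18 alternatives, with log2 fold changes from 0.64 to 0.73. The sum of the TRAIL receptor rows passed too (0.60). TNFRSF10D made up 45.8 to 58.1% of that sum, so its pass is not separate support for the TNFRSF10D call. The count of members called was 1 with upper-quartile factors and 1 with limma voom, where LTBR was lost (adjusted p = 0.0514 and 0.0531), and 5 with DESeq2, which added TNFRSF1A, TNFRSF1B and TNFSF12. It ranged from 1 to 5 on leaving out single libraries. The TRAF4 call was lost with limma voom (adjusted p = 0.0521), when no filter was applied (0.0519), with scaling by DESeq2 size factors (0.0513), by upper quartiles (0.0525) or by library size alone (0.0511), and when R7 and R9 had a term of their own (0.0617). The count of pathway genes called was 10 with DESeq2, 0 without DMSO R7 and R9 and 0 with a model term for them, and 0 to 11 on leaving out single libraries. Over all genes 1830 were called with DESeq2, 162 without R7 and R9 and 42 to 1782 on leaving out single libraries. The highest count, 1782, came without DMSO R1, as did the 5 members and the 11 pathway genes. Leaving out DMSO R3 gave 795 genes, and leaving out any other library gave 42 to 82. Both groups have columns numbered 1 and 3, whose deviations from the group means correlated at 0.23 and 0.21; 2 pairs do not show that the numbers pair the libraries. With the column number as a replicate block, 7 members (6 higher, and TNFRSF8 lower), 16 pathway genes and 2531 genes in all were called, from 1 residual degree of freedom.

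Members that did not pass turned sign without R7 and R9, with log2 fold changes of 0.12 (CD40), -0.054 (TNFSF9), -0.013 (LTB), -0.14 (TNFRSF21), -0.22 (TNFSF13), -0.40 (TNFRSF8), -0.32 (TNFRSF25), -0.066 (TNFRSF17), and in the pathway 0.016 (BIRC2), 0.011 (TIMP3) and 0.068 (ERAP1). With the model term the values, in the order CD40 to TNFRSF17 above, were 0.11, -0.067, -0.027, -0.15, -0.23, -0.42, -0.33 and -0.082, with 0.0025 for BIRC2 and 0.054 for ERAP1. With the replicate block they were 0.091 (CD40), -0.16 (LTB), -0.083 (TNFRSF21), -0.17 (TNFSF13), -0.47 (TNFRSF8), 0.033 (TNFRSF12A), -0.40 (TNFRSF25), -0.49 (TNFRSF17) and -0.015 (TRAF5). On leaving out single libraries, TNFSF15 ranged from -0.016 to 0.54, TNFSF9 from -0.11 to 0.10, TNFRSF11B from -0.29 to 0.069, TNFSF13 from -0.030 to 0.37, TNFRSF12A from -0.18 to 0.050 and TNFRSF25 from -0.0019 to 0.47. Other than the libraries left out, the cause of these differences was not tested. The 6 tested members with a mean under 1 CPM rest on few counts.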
